A study of Mus musculus with 9 samples.

Results

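The testis-specific serine kinases Tssk1, Tssk2, Tssk3, Tssk4 and Tssk6 were taken by gene symbol and are 5 of the 32285 genes counted. Their unique molecular identifiers (UMIs, 1 per captured mRNA molecule) were summed per mouse and germ cell stage in single-cell RNA sequencing of whole mouse testis at postnatal day 24. The Control group had 4 mice, NELF-B cKO had 2 and TDP-43 cKO had 3, all labelled C57BL/6, with 1 library per mouse, and the Control mice were in part littermates of the cKO mice. The labels do not say which Nelfb, Tardbp or Cre alleles each Control mouse carried, and a tag "het" on the deposited matrix of Control replicate 2 is not explained in them. The cKO mice carried 1 floxed and 1 null allele of Nelfb or of Tardbp together with the Stra8-iCre transgene, whose recombinase is switched on in spermatogonia, so that the deletion is made in germ cells while Sertoli and other somatic cells keep the gene. Some germ cells of these mice escape the deletion, and such cells were kept in the sums below unless stated. Nelfb encodes a subunit of the negative elongation factor, which holds RNA polymerase II near promoters, and Tardbp encodes TDP-43, an RNA- and DNA-binding protein. Stages are abbreviated as SG (spermatogonia), pL, L and Z (preleptotene, leptotene and zygotene spermatocytes, as 1 group), P SC (pachytene spermatocytes), D SC (diplotene spermatocytes) and RS (round spermatids).

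The TSSK kinases are a small family of serine/threonine kinases known from postmeiotic germ cells, where they act in the shaping of the sperm head and tail. TSSK1 and TSSK2 bind and phosphorylate TSKS and are needed together for male fertility in mice. TSSK6, also called SSTK, is needed for the replacement of histones and the packing of sperm DNA, and works with the cochaperone TSACC. During that packing, transition proteins (Tnp1, Tnp2) and then protamines (Prm1, Prm2) take the place of histones.

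In the GENCODE models on GRCm38, Tssk1 (chr16:17894223-17897922) and Tssk2 (chr16:17898637-17900024) were single-exon neighbours on the plus strand, with 714 bases between them. Tssk3 lay on the minus strand of chromosome 4 (chr4:129489014-129491022) with 2 exons, Tssk4 on the plus strand of chromosome 14 (chr14:55650184-55652539) with 3 to 4 exons, and Tssk6 on the plus strand of chromosome 8 (chr8:69902184-69903518) with 1 exon. Tssk1 overlapped Dgcr2, and Tssk6 overlapped Yjefn3 and Ndufa13, all on the opposite strand. All 5 members matched a RefSeq promoter on GRCm38.p6. The 100 bases before each RefSeq start are shown because the members differed in the stage at which they rose. RefSeq and GENCODE starts are not the same for every member, and the RefSeq start of Tssk3 lies inside its GENCODE model, as does the window shown for it. They span chr16:17894103-17894202 (plus), chr16:17898537-17898636 (plus), chr4:129490771-129490870 (minus), chr14:55650084-55650183 (plus) and chr8:69902084-69902183 (plus), and capitals mark TGACTTCA or its reverse complement TGAAGTCA.

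Tssk1: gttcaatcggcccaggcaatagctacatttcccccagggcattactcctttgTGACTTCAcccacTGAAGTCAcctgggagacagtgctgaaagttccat
Tssk2: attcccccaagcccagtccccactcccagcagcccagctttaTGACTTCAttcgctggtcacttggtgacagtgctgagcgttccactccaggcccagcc
Tssk3: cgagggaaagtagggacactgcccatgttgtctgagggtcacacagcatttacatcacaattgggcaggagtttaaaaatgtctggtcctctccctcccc
Tssk4: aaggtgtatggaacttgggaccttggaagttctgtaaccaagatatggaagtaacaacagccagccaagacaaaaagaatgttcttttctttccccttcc
Tssk6: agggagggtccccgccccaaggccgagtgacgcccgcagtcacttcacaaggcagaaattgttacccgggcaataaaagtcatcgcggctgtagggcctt

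TGACTTCA, which differs by a single base from the cyclic AMP response element TGACGTCA, was picked after these sequences were read. It began 48 bases before the start of Tssk1 and again, on the opposite strand, at 35 bases, and 58 bases before the start of Tssk2. On either strand it was in 1.31% of 32851 mouse promoters of 250 bases. Of the other motifs searched on both strands, TGACGTCA (1.55% of promoters), GTTGCC (10.4%), TATAAA (12.4%) and ACAATGG (3.02%) were in none of the 5 member promoters, and the shorter TGACG (17.8%), which is contained in TGACGTCA, was in that of Tssk6 alone, 73 bases before the start. Tssk1 and Tssk2 shared an 11-base run, gacagtgctga, that was in 4 of all promoters. These matches describe letters in a window, and binding was not measured.

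The libraries held 119203347 to 159407373 UMIs, and 2982 to 8457 barcodes per mouse passed the filter on genes and mitochondrial UMIs, 45132 in all, of which 520 (1.15%) had a sequence also seen in another library. No doublet caller was run. In SG and pL, L and Z together, Nelfb stood at 63.0 to 74.2 CPM (UMIs of a gene scaled to a total of 1e6) in Control, at 4.15 and 4.99 CPM in NELF-B cKO and at 60.4 to 63.8 CPM in TDP-43 cKO. Tardbp stood at 97.2 to 134 CPM in Control, at 92.8 and 95.8 CPM in NELF-B cKO and at 34.2, 46.5 and 50.8 CPM in TDP-43 cKO, but its 3' tags lie outside the deleted part, so that these values are no check of the deletion itself. RS held all 8 of their fixed markers and came from 2 clusters, cluster 5 with 1897 cells and a median of 2943 UMIs, and cluster 19 with 665 cells and a median of 34390 UMIs. The cells named D SC were 1 cluster of 738 cells, with 4 of 5 D SC markers and also 4 of the 8 RS markers. RS numbered 761, 246, 556 and 522 cells in Control replicates 1 to 4, 353 and 11 in NELF-B cKO and 2, 36 and 75 in TDP-43 cKO, so that TDP-43 cKO replicate 1, with under 10 cells, was left out of every RS level and RS test below. Control replicate 2 was the lowest Control mouse in its share of RS and in its RS levels of Tssk6 and Prm1.

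From pachytene to round spermatids in Control mice, 4 members rose in D SC and again in RS, whereas Tssk6 rose in RS alone. The D SC of the main setting were a cluster that also held RS markers. In the fit with cluster 5 alone as RS, the second rise of Tssk1, Tssk2 and Tssk4 was not kept, and Tssk1 was lower than in D SC (-0.99 on the log2 scale). Tssk1 stood at 14.5, 4.95, 9.72 and 7.07 CPM in P SC of Control replicates 1 to 4. In D SC it stood at 168, 105, 89.3 and 206 CPM, and in RS at 523, 467, 583 and 660 CPM. The ranges of the 3 stages did not overlap. Fitted in edgeR with the mouse as a block, Tssk1 was higher in D SC than in P SC by 4.12 (SE 0.31) on the log2 scale and higher in RS than in D SC by 1.99 (SE 0.27), with adjusted p of 1.1e-08 and 1.17e-05.

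Tssk2 stood at 9.61, 1.71, 6.06 and 3.98 CPM in P SC. It reached 80.9, 43.7, 51.1 and 110 CPM in D SC and 536, 384, 631 and 641 CPM in RS. Again no stage overlapped another, and Control replicate 2 was lowest of the 4 mice in each. The log2 differences were 4.00 (SE 0.33) from P SC to D SC and 2.93 (SE 0.30) from D SC to RS.

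Tssk3, a family member expressed with the others in spermatids, stood at 2.40, 0.40, 1.61 and 0.97 CPM in P SC, at 38.9, 26.0, 23.2 and 34.7 CPM in D SC and at 178, 95.7, 182 and 143 CPM in RS. Tssk4, whose product phosphorylates the sperm tail protein ODF2, stood at 2.82, 1.12, 2.32 and 1.46 CPM in P SC, at 76.5, 45.9, 42.2 and 97.8 CPM in D SC and at 207, 203, 212 and 241 CPM in RS. The ranges of the stages did not overlap for either gene. From P SC to D SC the log2 differences were 4.84 (SE 0.27) for Tssk3 and 5.23 (SE 0.29) for Tssk4. From D SC to RS they were 2.19 (SE 0.22) and 1.73 (SE 0.24). The size of the first step depended on which cells were named D SC. With clusters at resolution 1.2 it was 2.53 for Tssk1, 2.05 for Tssk2, 2.75 for Tssk3 and 3.25 for Tssk4, still called for each. At that resolution 635 Control cells named D SC (cluster 18) had all 5 D SC markers and no RS marker. They held Tssk1 to Tssk4 at 7.21, 2.62, 0.66 and 1.19 CPM, each within the P SC range. The 505 Control cells of cluster 21, with 4 D SC and 4 RS markers, held them at 146, 72.7, 30.7 and 67.3 CPM. At that resolution the first step was thus seen in the D SC cluster that also held RS markers. The largest edgeR adjusted p among Tssk2, Tssk3 and Tssk4 was 3.54e-08 at the first step, for Tssk2, and 1.19e-05 at the second, for Tssk4.

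Tssk6 did not share the step in D SC. It stood at 2.70, 0.93, 2.29 and 1.60 CPM in P SC and at 2.35, 0.89, 1.86 and 1.35 CPM in D SC, from 7 to 10 UMIs per mouse in D SC. In RS it stood at 65.4, 5.69, 163 and 78.9 CPM. The P SC and D SC values overlapped, and the RS values lay above both, with Control replicate 2 more than 10 times below each other mouse. In edgeR the difference between D SC and P SC was -0.20 (SE 0.67) on the log2 scale with adjusted p = 0.80, and that between RS and D SC was 5.32 (SE 0.54) with adjusted p = 5.06e-07.

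**Figure D1:**
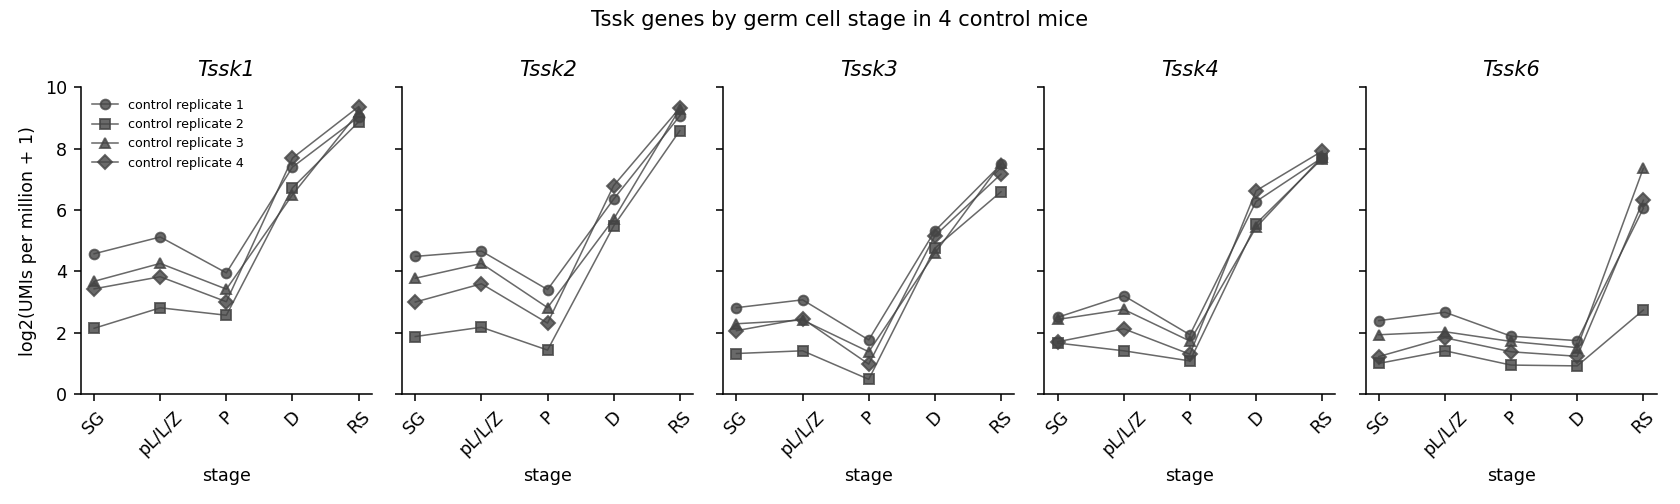
Level of each kinase as log2(CPM + 1) by germ cell stage, with 1 symbol for each of the 4 Control mice and lines joining the stages of a mouse. Tssk1 to Tssk4 climb at D SC and again at RS, and Tssk6 stays at 0.89 to 2.70 CPM in P SC and D SC and climbs at RS, least in Control replicate 2.

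Of the 5 members, 4 rose from P SC to D SC, where 34.4% of the 17198 genes tested rose, and all 5 rose from D SC to RS, where 38.4% did. All 5 were higher in RS than in P SC, as were 39.8% of genes, by sizes that moved with the processing, from 3.57 to 9.44 for Tssk6 and from 3.21 to 6.74 for Tssk1 on the log2 scale, so that no order of the members is read from them. The members' median log2 difference from P SC to D SC was 4.12 against -0.10 over all genes tested, and from D SC to RS it was 2.19 against 0.21. Between pL, L and Z and P SC, Tssk2 and Tssk3 fell by 0.90 and 1.30 on the log2 scale (edgeR adjusted p = 0.037 and 0.0048), and 33.6% of genes fell. That step was measured at levels below those of free RNA, as the next values show for Tssk1, and neither gene passed once free RNA was subtracted.

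Free RNA, read from barcodes with at most 100 UMIs, held Tssk1 at 266, 87.4, 190 and 189 CPM in Control replicates 1 to 4. The Tssk1 level in P SC was 3.75% to 5.66% of that, and in Leydig cells, a somatic type that should lack the gene, it was 3.86% to 6.79%. In Sertoli cells, another such type, it was 8.47% to 19.3%. In D SC it was 47.0% to 120%, and in RS 197% to 534%. Tssk2 in D SC was at 28.8% to 78.4% of its free RNA level, below it in each Control mouse, beside 6.06% to 18.9% in Sertoli cells. The shares in D SC were 59.5% to 193.5% for Tssk3 and 83.9% to 188.5% for Tssk4. The Control levels of Tssk1 in P SC were thus no larger a part of the free RNA than those of Sertoli cells, and are not read as expression.

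Per cell the same order appeared after each cell was thinned to 2000 UMIs, which left out 446 of 1249 Sertoli cells, 287 of 3590 P SC, 275 of 2085 RS and no D SC. Tssk1 was then seen in 3.00% of P SC, 24.6% of D SC and 38.3% of RS, beside 7.60% of Sertoli cells. Unthinned, at median depths of 19460, 35396, 3610 and 2535 UMIs, the shares were 24.6%, 73.8%, 50.9% and 14.0%. Tssk6 was seen after thinning in 0.696% of P SC, 0.775% of D SC and 8.62% of RS, beside 0.747% of Sertoli cells, so that its share in spermatocytes was at the background.

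Among the relatives and partners, Tssk5 and Tsks rose at both steps, as Tssk1 to Tssk4 did. Tsks, the TSSK substrate, stood at 50.7 to 90.3 CPM in D SC and 272 to 493 CPM in RS, and rose by 3.12 (SE 0.18) from P SC to D SC and by 2.51 (SE 0.17) from D SC to RS. Tssk5 rose by 2.41 and 4.07 at the same steps, and by 0.99 at the first with clusters at resolution 1.2. Its level in D SC, 1.86 to 6.35 CPM, was below that of free RNA, 5.12 to 10.8 CPM, in each Control mouse, as was the case for Tssk2. Tsacc, the cochaperone of TSSK6, was 0.29 lower in RS than in D SC (adjusted p = 0.037, edgeR), but 0.21 higher with cluster 19 alone as RS. Of the 8 genes in this list, 6 rose and 2 fell from P SC to D SC, and 3 rose and 4 fell from D SC to RS, where over all genes tested 38.8% fell at the first step and 30.1% at the second. Tsacc, Ppp1cc, Hsp90aa1 and Ywhae were the 4 that fell.

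Of 6 genes for transcription and RNA-binding factors of late germ cells, 3 rose and 2 fell from P SC to D SC, and 4 rose and 2 fell from D SC to RS, beside the same shares of all genes. The 2 that fell were Rfx2, a transcription factor of spermiogenesis genes, and Ybx2, which binds stored mRNAs, at both steps. Fhl5, the spermatid partner of the activator CREM, rose by 4.80 (SE 0.27) from D SC to RS, and Crem itself rose by 0.46 (SE 0.09), but stood 0.58 lower on that scale (-0.58) with cluster 5 alone as RS. Sox30 rose by 1.03 (SE 0.12).

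Among the condensation genes, Tnp1, Tnp2, Prm1 and Prm2 rose at the step of Tssk6 alone, whereas the spermatid histone gene Hils1 rose at both steps. From P SC to D SC Hils1 rose by 3.97 on the log2 scale, where 34.4% of all genes tested rose. From D SC to RS all 5 rose, by 6.47, 6.31, 6.12, 6.09 and, for Hils1, 3.00, where 38.4% of all genes rose.

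The 2 RS clusters differed in their level of 4 members. They also differed in RNA quality and depth, with 3.84% of Control UMIs from mitochondrial genes and a median of 2821 UMIs per Control cell in cluster 5 against 0.348% and 33918 UMIs in cluster 19, and the part of this in the levels was not tested. The members had been held out of the genes used for clustering, and these values are descriptions, with no test. Tssk1 stood at 128 CPM over Control cells of cluster 5 and at 695 CPM in cluster 19, and Tssk2 at 137 and 680 CPM. Tssk4 stood at 77.4 and 257 CPM, and Tssk6 at 38.8 and 92.7 CPM, with Control replicate 2 the other way round at 8.57 and 5.03 CPM. Tssk3 stood at 157 and 147 CPM. At the finer resolution of 1.2, 4 clusters were named RS, and their cells were not all RS in the main setting. Clusters 10, 25 and 31 held all 8 RS markers, but cluster 23 held only 3 of 8, with a median of 6.03% mitochondrial UMIs per cell. There Tssk3 stood over Control cells at 222 CPM in cluster 10, 59.6 CPM in cluster 23, 121 CPM in cluster 25 and 363 CPM in cluster 31. Tssk6 stood at 62.3, 4.78, 24.0 and 656 CPM in the same clusters and Prm1 at 858, 91.9, 105 and 24573 CPM. Tssk1 stood at 169, 63.2, 668 and 881 CPM and Tssk2 at 201, 43.0, 620 and 1138 CPM. Both of these, like Tssk3, Tssk6 and Prm1, were highest in cluster 31, whereas Tssk4 was highest in cluster 25, at 268 CPM. Tssk5 stood at 120, 5.88, 63.1 and 5.29 CPM in clusters 10, 23, 25 and 31, lowest in cluster 31. Over the 2 RS clusters of the main setting it stood at 73.3 CPM in cluster 5 and 57.0 CPM in cluster 19. In cluster 19 a UMI was seen in 99.4% of 534 Control cells for Tssk1 and for Tssk2, in 97.4% for Tssk4, in 93.1% for Tssk3 and in 33.3% for Tssk6. Of these cells, 61.8% showed 4 members and 31.1% showed all 5. These shares are without thinning, at the median of 33918 UMIs per cell, and such shares depend on depth.

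**Figure D2:**
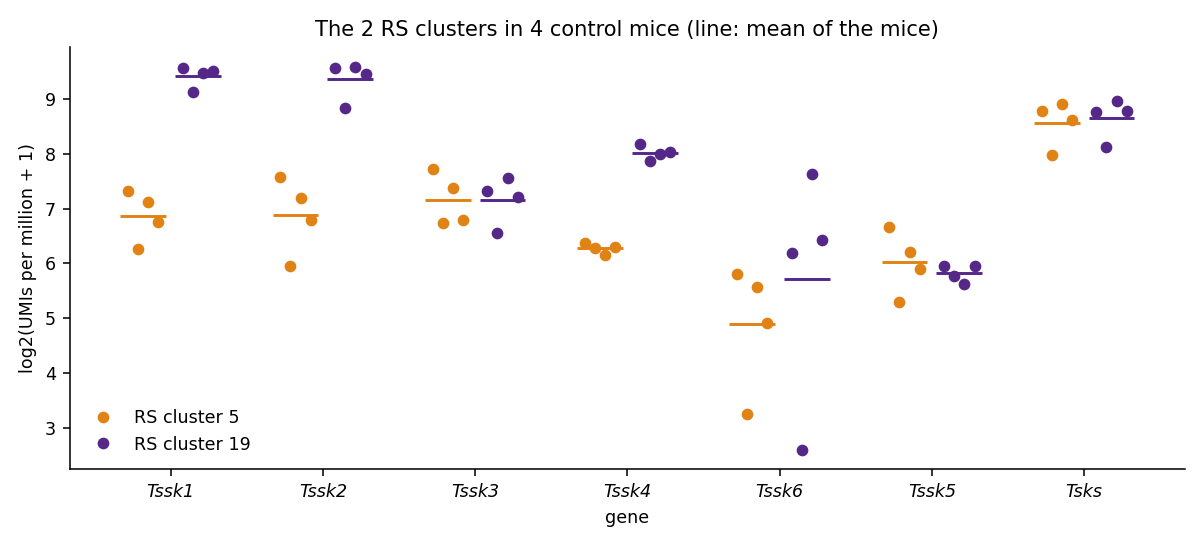
Level of each kinase, of Tssk5 and of Tsks as log2(CPM + 1) in the 2 clusters that make up the round spermatids, with 1 point for each of the 4 Control mice and the mean as a line. Tssk1, Tssk2 and Tssk4 are higher in cluster 19 in all 4 mice, Tssk6 in 3 of the 4, and Tssk3 overlaps.

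In the fit with cluster 5 alone as RS, Tssk1 was lower than in D SC, by 0.99 on the log2 scale (edgeR adjusted p = 0.0017). Tssk2 and Tssk4 did not pass as higher, so that the fitted climb of these 3 genes depended on cluster 19. Without the TMM scaling of the fit, pooled Control cells of cluster 5 held Tssk1, Tssk2 and Tssk4 at 128, 137 and 77.4 CPM. In D SC they stood at 140, 70.1 and 64.8 CPM, so by CPM Tssk2 and Tssk4 were higher in cluster 5. Why fit and CPM differ was not tested. Tssk3 and Tssk6 kept their rise in that fit.

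Across 45 Control sums of 12 cell types, the genes whose log2 level was most like each member's were named by Pearson's r, among 6795 genes with a mean of at least 20 CPM in RS. The sums share mice and depth, so r is a description. Cdiptos (r = 0.968), Atp6v1e2, 1700020L24Rik, Spaca1, which encodes an acrosome membrane protein, and Ccer1 were most like Tssk1. Tex43 (r = 0.967), 1700019D03Rik, Tex48, Tmem190 and 4933411K16Rik were most like Tssk2. For Tssk3 they were 4930578I06Rik (r = 0.962), Gm20268, Nt5c1b, Klhl10 and Ms4a5. For Tssk4 they were Efcab9 (r = 0.933), a regulator of the CatSper calcium channel, Tex36, Fam83e, Spaca4 and Erich3. For Tssk6 they were 1700101O22Rik (r = 0.902), Banf2, Spata3, 1700027F06Rik and Klrb1. Among the members, Tssk1 was most like Tssk2 (r = 0.925), and Tssk6 was least like the rest, with r of 0.485 to 0.693.

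The genotype comparison within RS asked how much of each kinase the round spermatids of the cKO mice carried. Clusters 5 and 19 gave 675 and 86, 184 and 62, 432 and 124, and 260 and 262 cells in Control replicates 1 to 4, 243 and 110 in NELF-B cKO replicate 1, 10 and 1 in NELF-B cKO replicate 2, 32 and 4 in TDP-43 cKO replicate 2 and 60 and 15 in TDP-43 cKO replicate 3. Tssk1 stood at 584 and 497 CPM in NELF-B cKO replicates 1 and 2 and at 438 and 397 CPM in TDP-43 cKO replicates 2 and 3, against 467 to 660 CPM in Control. NELF-B cKO replicate 1 lay within the Control range and the TDP-43 cKO mice just below it. In TDP-43 cKO replicates 2 and 3 the 4 and 15 cells of cluster 19 held 185 of 191 and 440 of 463 Tssk1 UMIs. Cluster 19 held most of them in Control too, 17624 of 18402, but from 534 cells. The value of NELF-B cKO replicate 2 rests on a single cell of cluster 19, which held 55 of its 57 Tssk1 UMIs, 48 of 50 for Tssk2, 21 of 29 for Tssk3 and 22 of 25 for Tssk4, while its 10 cells of cluster 5 stood at 50.7 CPM of Tssk1. That cell held a Nelfb UMI, and 1 Tssk1 UMI was left in the 7 cells of this mouse without one. Tssk2 stood at 652 and 436 CPM in NELF-B cKO and at 452 and 371 CPM in TDP-43 cKO, against 384 to 641 CPM in Control.

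Tssk3 stood at 203 and 253 CPM in NELF-B cKO, above the 95.7 to 182 CPM of Control, and at 128 and 129 CPM in TDP-43 cKO, within it. In the 253 RS of NELF-B cKO replicate 1 without a Nelfb UMI it stood at 167 CPM, within the Control range. Those cells held Tssk1 at 470 CPM, Tssk2 at 491 CPM, Tssk4 at 146 CPM and Tssk6 at 153 CPM. The 7 such cells of replicate 2 held 1 Tssk3 UMI. Whether a cell shows a Nelfb UMI also depends on its depth. Tssk4 stood at 172 and 218 CPM in NELF-B cKO and at 179 and 210 CPM in TDP-43 cKO, against 203 to 241 CPM in Control. In edgeR none of the differences over all RS passed. In NELF-B cKO 1 of 16839 genes passed (0.00594%) and no member did, each with an adjusted p of 1. In TDP-43 cKO 0% of genes passed, with 1938 at an unadjusted p under 0.05 and 14 called by DESeq2, and the members' log2 differences were -0.58 (SE 0.23) for Tssk1, -0.58 (SE 0.28) for Tssk2, -0.37 (SE 0.25) for Tssk3 and -0.29 (SE 0.18) for Tssk4, with adjusted p of 0.417 to 0.562. With TDP-43 cKO cells dropped where they held any Tardbp UMI, Tssk1 and Tssk2 were lower by 1.68 and 1.51, both with edgeR adjusted p = 0.042, and with such cells dropped from Control as well, no member passed.

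**Figure D3:**
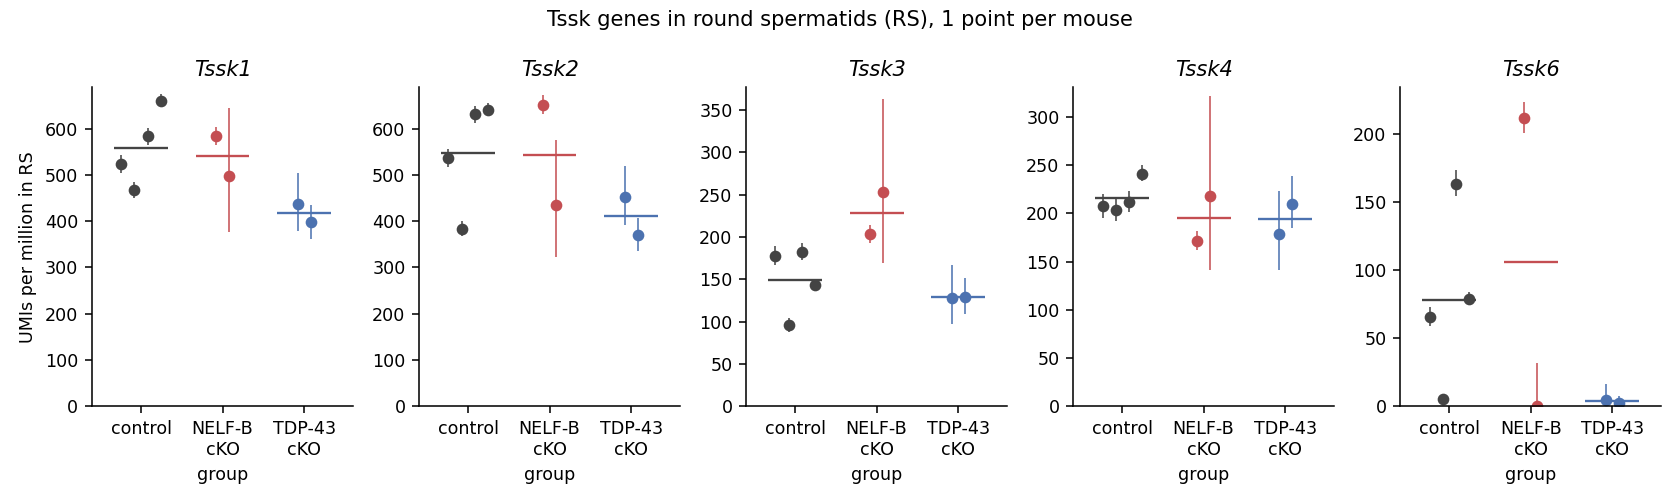
Level of each kinase in round spermatids (CPM, linear axis from 0) in every mouse with at least 10 such cells, with the 95% exact Poisson counting interval as whiskers and the group mean as a line. Tssk1 lies at 397 to 660 CPM in all 8 mice, and Tssk6 spreads from 0 to 212 CPM.

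Tssk6 was the member that differed most between mice of the same genotype. It stood at 212 CPM in NELF-B cKO replicate 1 and had 0 UMIs in replicate 2, where the floor of 3 counts is 26.1 CPM (the wider exact Poisson bound is given below). It stood at 4.59 and 2.57 CPM in TDP-43 cKO replicates 2 and 3, from 2 and 3 UMIs. Both TDP-43 cKO mice lay below the 4 Control mice, the nearest being Control replicate 2 at 5.69 CPM. At resolution 1.2, cluster 31 held 93, 1, 70 and 42 cells of Control replicates 1 to 4 and 78 of NELF-B cKO replicate 1. It held 1 cell of TDP-43 cKO replicate 3 and none of TDP-43 cKO replicate 2. Not all of these are among the RS summed above, because the main setting left its own cluster 23 unnamed for low UMIs. In Control replicate 1 that cluster held 83 cells with a median of 1682 UMIs, the same median as in cluster 31. The lone TDP-43 cKO cell had 3085 UMIs, as had the 1 cell of TDP-43 cKO replicate 3 in the unnamed cluster. These counts therefore do not give the make-up of the RS behind the levels above. In cluster 25 alone, Tssk6 stood at 33.9, 5.03, 31.9 and 26.1 CPM in Control and at 30.1 CPM in NELF-B cKO replicate 1, and the 4 and 15 cells of TDP-43 cKO replicates 2 and 3 held 0 UMIs. The log2 difference between TDP-43 cKO and Control over all RS was -4.78 (SE 1.62), with an edgeR adjusted p of 0.386. Without Control replicate 2 it was -5.17 with adjusted p = 0.00052, and 756 genes were then called. With no filter on low counts its adjusted p was 0.0039. With cluster 5 alone as RS it was -1.60, with adjusted p = 0.538.

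The mice with little Tssk6 were those with little Prm1. Prm1 stood at 884, 20.3, 5768 and 2114 CPM in RS of Control replicates 1 to 4, at 8857 and 17.4 CPM in NELF-B cKO and at 18.3 and 3.43 CPM in TDP-43 cKO. The 4 mice with 884 CPM of Prm1 or more had 65.4 to 212 CPM of Tssk6, and the 4 with 20.3 CPM or less had measured levels of 0 to 5.69 CPM, with Control replicate 2 among the latter. Counting error allows more in 3 of those mice, with 95% exact Poisson upper bounds of 32.2 CPM in NELF-B cKO replicate 2 and 16.6 and 7.52 CPM in TDP-43 cKO replicates 2 and 3. Tssk1 was between 397 and 660 CPM in all 8. Within cluster 19 alone, Tssk6 was at 71.9, 5.03, 197 and 84.7 CPM in Control replicates 1 to 4 and at 243 CPM in NELF-B cKO replicate 1, where Prm1 was at 1004, 18.2, 7236, 2293 and 10501 CPM. The 15 and 4 cells of cluster 19 in TDP-43 cKO held no Tssk6 UMI. In that cluster Tnp1, Tnp2 and Prm2 split the mice as Prm1 did, but Hils1 did not. Hils1 was at 1382, 1057, 1504 and 1396 CPM in Control replicates 1 to 4 and at 1717 and 1580 CPM in NELF-B cKO, the latter from 1 cell. It was at 1339 and 958 CPM in TDP-43 cKO replicates 2 and 3. As the mice fall into 2 separate sets for Tssk6 and Prm1, no correlation was computed.

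**Figure D4:**
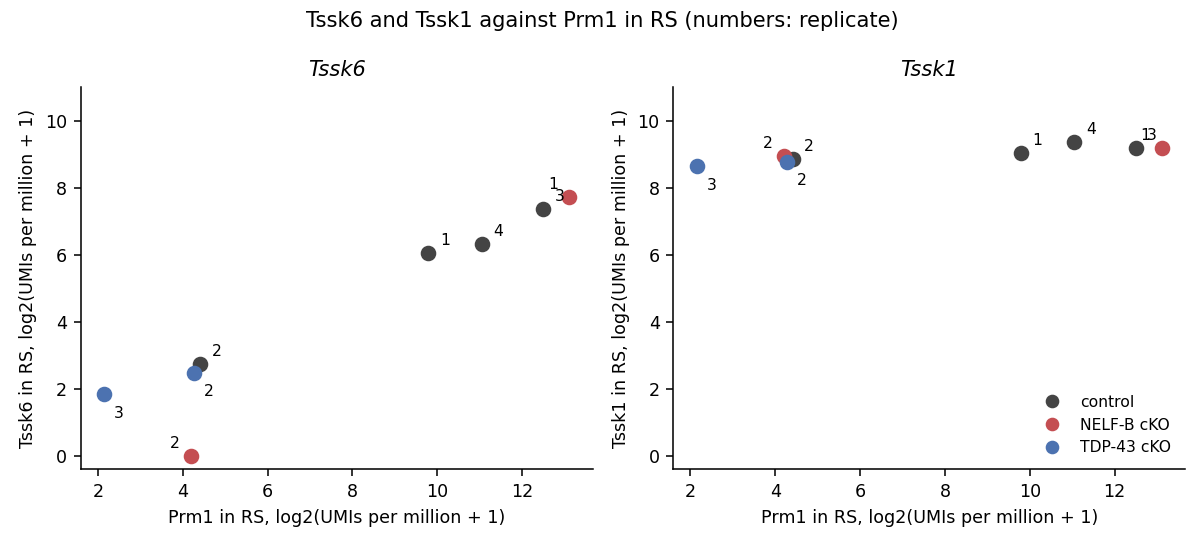
Tssk6 level (left) and Tssk1 level (right) against Prm1 level in round spermatids, all as log2(CPM + 1), with 1 point per mouse, coloured by genotype and numbered by replicate. The 4 mice with Prm1 of at least 884 CPM have Tssk6 of at least 65.4 CPM, and the 4 with Prm1 of at most 20.3 CPM have measured Tssk6 of 0 to 5.69 CPM (upper counting bound 32.2 CPM in the mouse at 0), while Tssk1 is at 397 to 660 CPM in all 8.

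Markers of other cells were also seen in RS. All 7 Sertoli markers were seen in RS of each Control mouse, with a summed level of 64.0 to 155 CPM. All 7 were also seen in Control P SC, at 39.4 to 97.2 CPM, and in Control D SC, at 39.1 to 105 CPM. In RS they summed to 56.0 CPM (7 of 7) and 462 CPM (5 of 7) in NELF-B cKO replicates 1 and 2. In TDP-43 cKO RS they summed to 215 and 130 CPM (7 of 7). The 462 CPM, a sum over the list, are close to the 497 CPM of Tssk1 alone in NELF-B cKO replicate 2. The 5 endothelial markers, 4 of them seen in each Control mouse, summed to 13.3 to 34.7 CPM in RS of Control, against 1.86 to 3.24 CPM in P SC and 4.34 to 6.62 CPM in D SC, and to 18.3 to 31.7 CPM in RS of the cKO mice. The 6 Leydig markers summed to 4.37 to 13.1 CPM in Control, 27.9 and 61.0 CPM in NELF-B cKO and 13.8 and 7.72 CPM in TDP-43 cKO, and each of the other lists (myoid, macrophage, immune and interstitial) to at most 17.4 CPM in any mouse. Their part in the stage and genotype values was not tested.

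In P SC, no member passed in either cKO. Of 17688 genes, 0.017% passed in NELF-B cKO and 0% in TDP-43 cKO, where 1241 had an unadjusted p under 0.05. Tssk2 stood at 0.084 and 0.47 CPM in TDP-43 cKO replicates 2 and 3 against 1.71 to 9.61 CPM in Control, and was called as lower by DESeq2 alone (adjusted p = 0.0022). The free RNA of these mice also held less Tssk2, at 11.5 and 19.3 CPM against 55.7 to 234 CPM in Control. Tssk1 in P SC was 6.91% and 26.9% of the free RNA level in NELF-B cKO replicates 1 and 2, beside 10.8% and 2.23% in Sertoli cells. It was 10.2% to 13.5% in TDP-43 cKO replicates 2 and 3, beside 2.52% to 4.57% in Sertoli cells of all 3 TDP-43 cKO mice. In NELF-B cKO replicate 2 and TDP-43 cKO replicates 2 and 3, P SC held 12, 35 and 29 Tssk1 UMIs. Free RNA held 25, 32 and 42 in these mice, and no interval was computed for the shares. The share in P SC was above that in Sertoli cells in NELF-B cKO replicate 2 and in both TDP-43 cKO mice, and below it in NELF-B cKO replicate 1. In D SC only replicate 1 of NELF-B cKO had enough cells, with 76.1, 32.8, 22.5 and 28.4 CPM for Tssk1 to Tssk4, each below every Control mouse, and no test was made of this single mouse. In TDP-43 cKO replicates 2 and 3, Tssk1 was at 116 and 153 CPM, Tssk2 at 64.3 and 68.2 CPM, Tssk3 at 23.8 and 32.5 CPM and Tssk4 at 59.3 and 64.9 CPM, all within the Control range, and 0% of 15179 genes passed, with 821 at an unadjusted p under 0.05. Tssk6 had 0 UMIs in both, where the floor of 3 counts was 1.66 and 3.25 CPM, which is about the Control level of 0.89 to 2.35 CPM, so that no difference was detectable at this depth.

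Summed over all barcodes of a mouse that passed the filter, all 5 members were lower in TDP-43 cKO. In such sums fewer spermatids and less RNA per spermatid cannot be told apart, and RS were 0.0507% to 2.17% of barcodes in TDP-43 cKO against 2.91% to 10.8% in Control. Those shares rest on unlike totals, since unnamed clusters of few UMIs made up 27.7% to 63.5% of Control barcodes and 0.0253% to 1.72% of those in TDP-43 cKO, and held 2.00% to 25.2% of the Control Tssk1 UMIs. Tssk1 stood at 106, 44.1, 76.9 and 116 CPM in Control, at 64.1 and 1.60 CPM in NELF-B cKO and at 0.83, 7.82 and 10.0 CPM in TDP-43 cKO. Tssk6 stood at 12.5, 1.42, 19.0 and 12.9 CPM in Control, at 20.4 and 0.59 CPM in NELF-B cKO and at 0.41, 1.25 and 0.83 CPM in TDP-43 cKO. The TDP-43 cKO mice lay below every Control mouse for both genes, and the NELF-B cKO mice lay apart from each other. The log2 differences in TDP-43 cKO were -4.19 (SE 1.26) for Tssk1, -4.48 (SE 1.38) for Tssk2, -3.69 (SE 1.03) for Tssk3, -3.79 (SE 0.97) for Tssk4 and -4.13 (SE 1.28) for Tssk6, with edgeR adjusted p of 0.023 to 0.032, and 29.1% of 24594 genes were lower. Leaving out single mice of these 2 groups left 0 to 3 of these 5 calls, with 0 without Control replicate 1 or 4 or TDP-43 cKO replicate 1 or 3, 1 without Control replicate 3 or TDP-43 cKO replicate 2, and 3 without Control replicate 2. In NELF-B cKO no member and 0% of genes passed, with 6655 at an unadjusted p under 0.05 and 4104 called by DESeq2. Without replicate 1 the group is 1 mouse, replicate 2, whose spread is assumed to be that of the other groups, and the 5 calls of that fit are not read as a difference of the genotype.

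**Figure D5:**
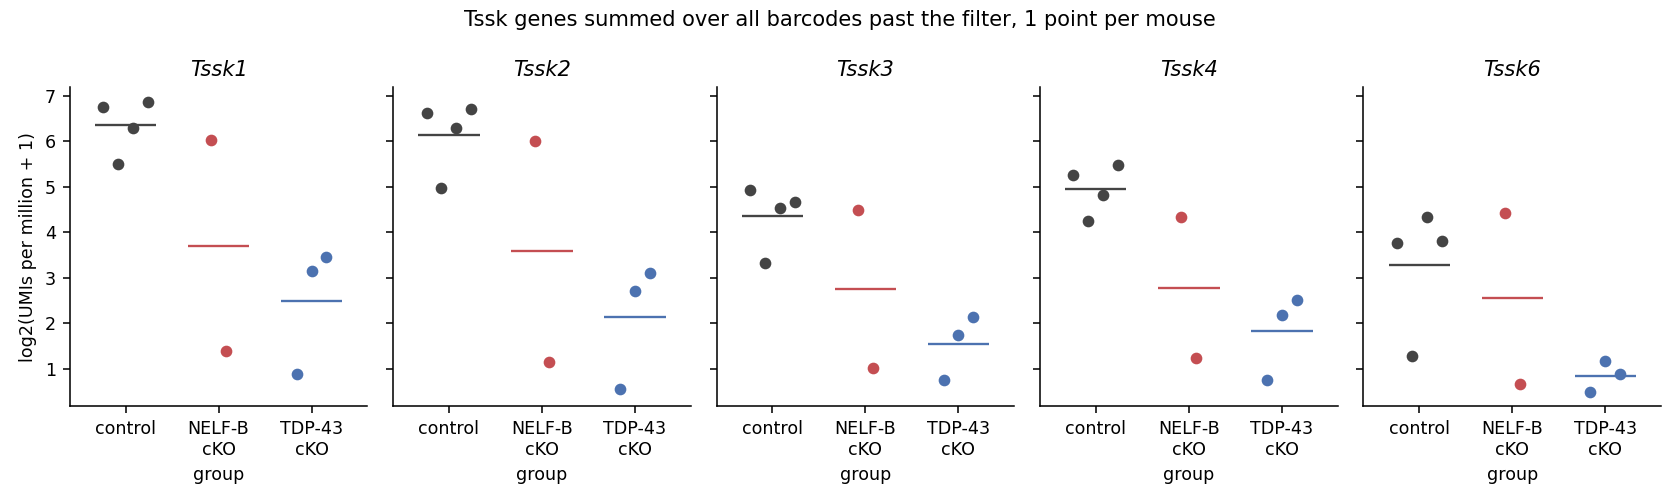
Level of each kinase summed over the barcodes of a mouse that passed the filter, as log2(CPM + 1), with 1 point per mouse and the group mean as a line. The 3 TDP-43 cKO mice lie below the 4 Control mice, and the 2 NELF-B cKO mice lie apart from each other.

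The barcodes past the filter held 37.5% to 78.3% of the UMIs of a library, and the shares below are within them. In Control the cells named RS held a median of 65.6% of the Tssk1 UMIs and 69.8% of the Tssk6 UMIs past the filter. They were a median of 10.3% of the barcodes past the filter. Over all barcodes the Control mice held 19516, 5809, 13987 and 16201 Tssk1 UMIs, against 5294, 4553, 5536 and 11292 past the filter. In TDP-43 cKO replicates 2 and 3 the cells named RS held 39.5% and 63.1% of the Tssk1 UMIs past the filter. Of the Tssk6 UMIs they held 2 of 77 and 3 of 61.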

How the data were processed

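The authors deposited, per the file headers, raw counts of UMIs per gene and barcode from 10x 3' libraries on mm10, made with Cell Ranger (7.0.0 in the study's methods, with 6.1.1 for demultiplexing, while the matrix headers name Cell Ranger 4). Of all barcodes, 45132 were used, each with more than 1000 genes detected and less than 10% of UMIs from mitochondrial genes. They were clustered in scanpy 1.11.5 with leidenalg 0.10.2 at resolution 0.8, without the members among the clustering genes, and 26 of 30 clusters were named from marker lists (4 stayed unnamed). Clusters with a median under 2000 UMIs, over 80% from 1 mouse or markers of another lineage were left unnamed, limits set after the clusters were seen. Counts were summed per mouse and stage where at least 10 cells were present, and tested in edgeR 4.0.16 (quasi-likelihood, filterByExpr, TMM, Benjamini-Hochberg adjusted p under 0.05 over all genes), with the mouse as a block between stages. The SE printed with an edgeR difference is its absolute value divided by the square root of the test's F, not an error estimated by the fit. DESeq2 1.42.0 was an alternative. Intervals and floors (3 counts) cover counting error only. Named genes were the members, the listed partners, regulators and condensation genes, and the 5 genes most like each member. The fits were also run on simulated counts, and as the outcome is not given here, it is not used as support. The members and lists were chosen with earlier results of these data known, and TGACTTCA and the split of RS by cluster were chosen after seeing the data. Replicates are separate mice.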

Additional observations from a re-analysis of the deposited data

How the results depend on the processing

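The rises of Tssk1 to Tssk4 from P SC to D SC kept their direction and passed in all 10 alternatives, though at resolution 1.2 they shrank to 2.05 to 3.25, and those of all 5 members from P SC to RS in all 12. From D SC to RS the split of RS mattered. In the fit with cluster 5 alone 3 members passed, Tssk3 and Tssk6 as higher and Tssk1 as lower (-0.99). Tssk4 (-0.46) and Crem (-0.58) also turned lower in that fit, though the pooled Control CPM of Tssk4 was above that of D SC. With cluster 19 alone Tsacc turned higher (0.21). In TDP-43 cKO RS of cluster 5 alone, Tssk4 turned higher (0.67). The cause was not tested. The count of members that fell between pL, L and Z and P SC was 4 with DESeq2, 0 with free RNA subtracted, 1 with low-UMI clusters kept and 1 to 2 without single mice (1 without Control replicate 3). In the main fit it was 2, beside 33.6% of all genes. The shares of all genes that moved are not given for these alternatives, so no excess over all genes is read from the member counts.

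Genes called in RS of NELF-B cKO and TDP-43 cKO were 0 and 14 with DESeq2 and 6 and 189 with no filter on low counts (1 member in TDP-43 cKO), 0 in NELF-B cKO with free RNA subtracted, and 1114 (2 members) in TDP-43 cKO without cells holding a UMI of the targeted gene. Without single mice they were 0 to 1 and 0 to 756, with 0 to 1 members in TDP-43 cKO. In P SC they were 280 and 128 (1 member) with DESeq2, 57 and 6 with no filter, 13 and 6 with free RNA subtracted, 24 and 1 at resolution 1.2, 7 and 1 with low-UMI clusters kept, and 7 and 2612 with targeted-gene cells left out of cKO mice, or 0 in NELF-B cKO when left out of Control too. Without single mice they were 0 to 2618 and 0 to 19. Any fit that leaves out a NELF-B cKO mouse, or 1 of 2 TDP-43 cKO mice, rests on a lone mouse assumed to vary like the other groups. In D SC of TDP-43 cKO they were 4, 33 and 2 with DESeq2, no filter and resolution 1.2, and 116 or 1 with targeted-gene cells left out of cKO mice or of both groups. In whole-testis sums they were 4104 in NELF-B cKO with DESeq2, and without single mice 0 to 13015 (0 to 5 members) in NELF-B cKO and 1918 to 16523 (0 to 5 members, over 3 only without a NELF-B cKO mouse) in TDP-43 cKO.

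Replicate numbers were taken only to name the mice. Same-numbered mice correlated from -0.785 to 0.306 in their deviations from group means over whole-testis sums. The deviations of the 2 NELF-B cKO mice mirror each other by construction, so these correlations cannot show whether the numbers pair mice. With the replicate block, 55 genes in NELF-B cKO RS, 182 genes and 1 member (Tssk6, -5.15, edgeR adjusted p = 2.28e-12) in TDP-43 cKO RS, 0 in P SC of both, 19 in D SC of TDP-43 cKO and 0 genes and 0 members in whole-testis sums of TDP-43 cKO were called. With no replicate block between stages, 1 member fell between pL, L and Z and P SC. Free RNA subtraction was not run for whole-testis sums, and too few mice were left for cluster 19 alone between genotypes or for removal of Nelfb-positive RS. RS of NELF-B cKO replicate 2 rest on 11 cells, and mostly on 1 of them, and the TDP-43 cKO values of Tssk6 on 5 UMIs.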
